A study of Mus musculus with 8 samples.

Results

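The 10 genes described here encode the ligands and receptors of apelin, VEGF and angiopoietin signalling: Apln and Aplnr, Vegfa, Vegfb, Vegfc, Kdr and Flt1, and Angpt1, Angpt2 and Tek. They were chosen by name, as the rows of the deposited table that carry these symbols, and are 10 of its 23336 gene rows. The ligand Apln was 3.27-fold lower in ΔDMR1-U2 than in wild-type muscle, and the other 9 genes lay within 0.31 of 0 in log2 fold change. All 10 passed the filter on low counts that 15241 genes passed. They were proposed with the ΔDMR1-U2 against wild-type results of these data in view, so their differences in that contrast are given as description, with a standard error and without a p-value.

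The series compared total RNA of skeletal muscle in 4 ΔDMR1-U2 and 4 wild-type samples, all labelled as from female C57BL/6 pups at postnatal day 2. The labels do not say whether each sample came from a separate pup, so tests measure the spread between these samples, which may be technical in part. The ΔDMR1-U2 deletion lies in the imprinted Igf2 locus, and the study asked about transcripts of Igf2as, the gene antisense to Igf2. The sources used here do not say which parent transmitted it. Libraries are called 1A, 1B, 2 and 3 in each genotype, as labelled. In mm10 the genes lie on chromosomes X (Apln), 2 (Aplnr), 17 (Vegfa), 19 (Vegfb), 8 (Vegfc and Angpt2), 5 (Kdr and Flt1), 15 (Angpt1) and 4 (Tek), so none shares the chromosome of the Igf2 locus, chromosome 7.

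Apelin is a secreted peptide that acts through a G protein-coupled receptor, Aplnr, and in sprouting mouse vessels it is made by the leading endothelial cells. VEGF-A drives vessel growth mainly through the receptor tyrosine kinase Kdr, while Flt1 binds the same ligand tightly and signals weakly, so that it can act as a decoy. Angiopoietin 1, made by cells around the vessel, activates the endothelial receptor Tek and steadies the vessel, and angiopoietin 2, made by the endothelium itself, can oppose it. In muscle the fibres themselves are a known source of VEGF-A.

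The libraries held 16084413 to 26913636 counts. Igf2as, which checks the labels, was at 5.55 to 6.18 CPM (counts rescaled to a common library size) in ΔDMR1-U2 and 54.4 to 72.2 CPM in wild-type. ΔDMR1-U2 library 1B lay apart on the first principal component, with a score of -42.5 where the other 7 had -17.2 to 25.3, and ΔDMR1-U2 library 1A had 2.50 CPM of Xist, which coats the inactive X chromosome, against 1270 to 1900 CPM in the other 7, which goes against its label as female. Of 11 endothelial markers (Pecam1, Cdh5, Cldn5, Emcn, Esam, Egfl7, Robo4, Eng, Vwf, Mmrn2 and Tie1) all 11 were tested and none was at 0 throughout. Their summed level was 627.8 to 694.5 CPM in ΔDMR1-U2 muscle and 597.7 to 695.2 CPM in wild-type, and their median log2 fold change was 0.08. The single markers went both ways: edgeR called 0, DESeq2 called 1 and 3 had an unadjusted p under 0.05, which were Cdh5 at -0.28, without overlap between the groups, Vwf at 0.52 and Cldn5 at 0.23, with adjusted p of 0.0644, 0.198 and 0.221 (edgeR). The 7 skeletal muscle fibre markers, among them Ttn and Acta1, were all present as well. Their sums were 159100 to 179300 CPM in ΔDMR1-U2 muscle and 174900 to 205800 CPM in wild-type, with overlap. All 7 were lower in ΔDMR1-U2, with log2 fold changes of -0.34 (Myh3) to -0.14 (Myh8) and a median of -0.18. Of these, edgeR called 0, DESeq2 called 2 and 3 had an unadjusted p under 0.05 (edgeR), which were Myh3, Mylpf and Tnnt3. The groups did not overlap for Mylpf and Tnnt3. The part of fibre RNA in the level of Vegfa was not tested.

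Apln was the member that differed most, and its promoter is shown because the results turn on it. The promoters of Vegfa and Flt1 are shown beside it because these 3 genes are known as responsive to low oxygen. Each sequence is the 250 bases before the RefSeq start on the gene's strand (GRCm38.p6), with the motif GCGTG or ACGTG, the core that hypoxia-inducible factors bind, in capitals where it occurs on either strand.
Apln, chrX:48034854-48035103, minus strand: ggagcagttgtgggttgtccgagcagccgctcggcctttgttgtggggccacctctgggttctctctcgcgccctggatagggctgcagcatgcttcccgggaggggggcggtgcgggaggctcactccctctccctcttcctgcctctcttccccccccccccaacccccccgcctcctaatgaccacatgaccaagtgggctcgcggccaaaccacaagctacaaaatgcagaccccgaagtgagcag
Vegfa, chr17:46032378-46032627, minus strand: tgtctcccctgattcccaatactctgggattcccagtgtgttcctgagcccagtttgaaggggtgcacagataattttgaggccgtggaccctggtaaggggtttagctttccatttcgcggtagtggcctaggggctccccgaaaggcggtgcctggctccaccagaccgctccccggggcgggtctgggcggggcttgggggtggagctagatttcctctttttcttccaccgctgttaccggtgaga
Flt1, chr5:147726012-147726261, minus strand: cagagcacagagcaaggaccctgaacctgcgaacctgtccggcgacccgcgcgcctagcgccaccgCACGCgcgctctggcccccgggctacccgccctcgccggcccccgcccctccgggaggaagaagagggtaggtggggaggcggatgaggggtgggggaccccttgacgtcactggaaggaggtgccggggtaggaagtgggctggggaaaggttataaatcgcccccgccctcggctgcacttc

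Apln and Vegfa held neither motif in this window, and Flt1 held GCGTG at 1 place, on the opposite strand and so read as CACGC above, 184 bases before the start. RefSeq promoters were matched for 7 of the 10 genes. Kdr and Vegfb each held GCGTG at 2 places, and Vegfc and Tek held neither motif. For Vegfc alone, bases after the RefSeq start were not found in an annotated GENCODE transcript of the gene, so its window is less certain. Of 32851 mouse promoter windows of the same length, 28.2% held GCGTG, 16.6% held ACGTG and 38.6% held at least 1 of them. ACGTG is also part of the E-box CACGTG, which none of these 7 windows held. A motif in this window is a description of the sequence, not a measured binding site. The lack of one says nothing about sites outside the window, which were not searched.

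Apln, the ligand of the apelin receptor, was 3.27-fold lower in ΔDMR1-U2 muscle. It had 11.3, 4.53, 21.1 and 11 CPM in ΔDMR1-U2 libraries 1A, 1B, 2 and 3, against 41.4, 43.4, 37.1 and 34.1 CPM in wild-type libraries 1A, 1B, 2 and 3. Every ΔDMR1-U2 library lay below every wild-type library. The counts behind these levels were 222, 85, 353 and 224 in ΔDMR1-U2 and 638, 1133, 993 and 802 in wild-type. Its mean was 12 ± 6.81 CPM in ΔDMR1-U2 muscle and 39.0 ± 4.19 CPM in wild-type (SD, n = 4 each), and the log2 fold change was -1.71 (standard error 0.32). In the authors' deposited table the fold of wild-type over ΔDMR1-U2 is 3.25.

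Apln was the 1 member of the 10 called by the edgeR quasi-likelihood test at a Benjamini-Hochberg adjusted p under 0.05 over all genes, where 1.13% of tested genes were called and 0.617% were called lower. Among the 94 genes called lower, its decrease on the log2 scale ranked number 4. The members were proposed with this contrast in view, so this call and rank are description, not independent support. The level in ΔDMR1-U2 muscle was also uneven. The coefficient of variation of Apln was 56.8% among ΔDMR1-U2 libraries and 10.7% among wild-type libraries. Library 1B lay furthest below the wild-type mean, by -3.10 on the log2 scale, and library 2 lay closest, at -0.88, with 1A at -1.78 and 3 at -1.81.

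Library 1B was also the one with the most adipocyte marker RNA. The summed level of Adipoq, Plin1, Lep, Cfd, Retn and Cidec was 34.4, 166, 35.9 and 44.3 CPM in ΔDMR1-U2 libraries 1A, 1B, 2 and 3. In wild-type it was 28.6 to 66.1 CPM, and 6 of 6 markers were present. Each was highest in ΔDMR1-U2 library 1B except Lep, which did not pass the filter on low counts. Lep was at 0.16 CPM in that library and at 0.17 to 0.779 CPM in wild-type. Without library 1B the log2 fold change of Apln was -1.44 and the gene was still called. Without library 2 it was -2.11, also called. The call was lost in the 6 fits that left out ΔDMR1-U2 library 1A or 3 or any 1 wild-type library, and with ΔDMR1-U2 libraries 1A and 1B both left out. Apln was at -1.68 without 1A and at -1.29 without 1A and 1B, while the log2 fold change ran from -2.11 to -1.44 over all 8 fits without 1 library.

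Set against the summed endothelial markers of the same library instead of all counts, Apln was at -1.90 on the log2 scale. That value is a difference of mean log2 values, while the -1.71 given above is a fitted log2 fold change. The gap between them therefore cannot be read as an effect of the endothelial scaling. In bulk muscle, fewer cells that make a transcript and less of it per cell cannot be told apart. Apln lies on chromosome X in mm10, from 48025146 to 48034853 on the minus strand, in 3 exons with no other annotated exon over them. Of the other 9 genes only Angpt1 has exons that another annotated gene overlaps. ΔDMR1-U2 library 1A, the one with little Xist, had 11.3 CPM of Apln, between the other libraries of its genotype. Of 547 tested genes on chromosome X, 3 were called, all lower, or 0.548%, and their median log2 fold change was 0.01.

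**Figure D1:**
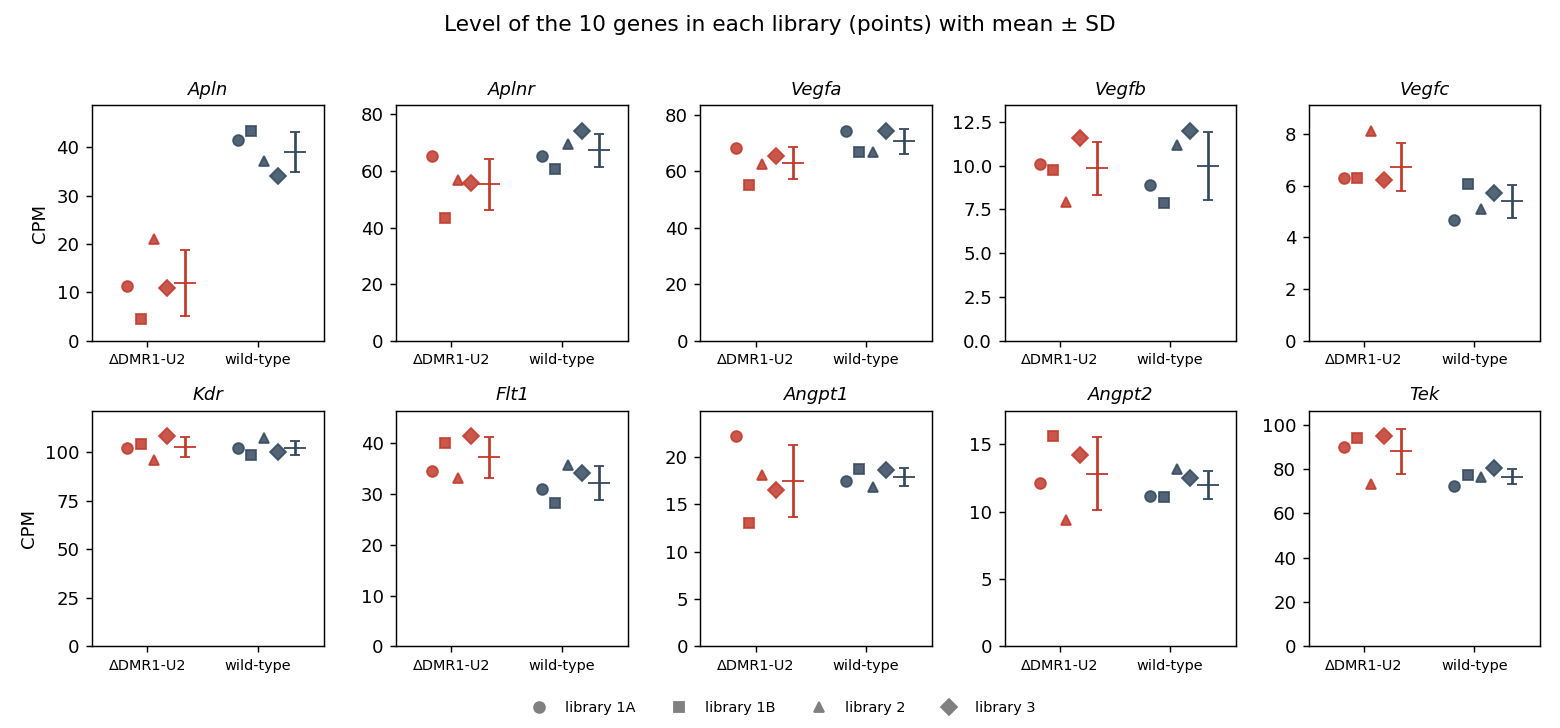
CPM of each gene (vertical axis from 0, its own scale per gene) in the 4 ΔDMR1-U2 and 4 wild-type libraries, with a symbol per library and the mean ± SD at the right of each group. Apln separates the genotypes widely, at 4.53 to 21.1 CPM against 34.1 to 43.4 CPM, whereas Kdr sits near 102 CPM in both.

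Aplnr, the receptor of apelin, had 65.4, 43.5, 56.7 and 55.6 CPM in ΔDMR1-U2 libraries 1A, 1B, 2 and 3, against 65.1, 60.5, 69.5 and 74.2 CPM in wild-type. The groups overlapped, with library 1A inside the wild-type range and library 1B lowest. The log2 fold change was -0.28 (standard error 0.11), and Aplnr was not called. Without library 1B it was -0.18, and without 1A -0.37. The log2 fold change of the ligand was several times that of its receptor, so the ratio of Apln to Aplnr, both per kilobase of exon, was 0.204, 0.123, 0.436 and 0.233 in ΔDMR1-U2 and 0.747, 0.842, 0.627 and 0.539 in wild-type. These ratios did not overlap between the groups.

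Of the other apelin genes listed, Furin, a protease that cuts hormone precursors, had a log2 fold change of -0.14 (adjusted p = 0.358, edgeR), at 63.9 ± 1.96 CPM in ΔDMR1-U2 muscle and 70.6 ± 9.07 CPM in wild-type (SD, n = 4 each). Mme, a membrane protease that breaks down peptides, had 0.21 (adjusted p = 0.574, edgeR). Of these 2 tested genes, 0 were called by edgeR or DESeq2 and 0 had an unadjusted p under 0.05. Apela, the second ligand of the receptor, was not analysed here.

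None of the VEGF ligands was called between the genotypes. Vegfa, the main vessel growth factor, had 68.3, 55.2, 62.7 and 65.4 CPM in ΔDMR1-U2 libraries 1A, 1B, 2 and 3, against 74.4, 66.9, 66.9 and 74.4 CPM in wild-type. Only ΔDMR1-U2 library 1A reached into the wild-type range. Its log2 fold change was -0.17 (standard error 0.08).

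Vegfb, a ligand of Flt1, had 10.1, 9.76, 7.94 and 11.6 CPM in ΔDMR1-U2 muscle and 8.89, 7.88, 11.2 and 12 CPM in wild-type. The groups covered nearly the same range, and the log2 fold change was -0.02 (standard error 0.15). Vegfc, a ligand of the lymphatic receptor Flt4, had 6.28, 6.30, 8.12 and 6.22 CPM in ΔDMR1-U2 muscle and 4.67, 6.05, 5.09 and 5.73 CPM in wild-type. The groups were apart by a narrow margin, and ΔDMR1-U2 library 2 stood above the rest of its group. The log2 fold change of Vegfc was 0.31 (standard error 0.13), and it was 0.21 without library 2. In all, 2 of the 10 genes, Apln and Vegfc, had groups that did not overlap, where 12.8% of all tested genes did.

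Kdr, the main signalling receptor of VEGF-A, was the steadiest of the 10 genes. It had 102, 104, 96.0 and 108 CPM in ΔDMR1-U2 libraries 1A, 1B, 2 and 3, against 102, 98.5, 107 and 100 CPM in wild-type. Its log2 fold change was 0.01 (standard error 0.06), and its coefficient of variation was 4.73% in ΔDMR1-U2 and 3.68% in wild-type. Flt1, the receptor that can act as a decoy, had 34.4, 40.0, 33.1 and 41.3 CPM in ΔDMR1-U2 muscle and 30.9, 28.1, 35.6 and 34 CPM in wild-type. Libraries 1B and 3 of ΔDMR1-U2 were above all wild-type libraries and the other two were not. The log2 fold change of Flt1 was 0.21 (standard error 0.10), and it was not called. A count per gene does not separate the soluble from the membrane form of Flt1.

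Per kilobase of exon, Flt1 stood at 0.226, 0.257, 0.230 and 0.257 of the Kdr level in ΔDMR1-U2 and at 0.203, 0.190, 0.222 and 0.227 in wild-type. The groups overlapped by 1 library of each genotype. Vegfa per Flt1 was 5.39 ± 0.878 in ΔDMR1-U2 and 6.98 ± 0.778 in wild-type (SD, n = 4 each), with overlap between the groups.

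Among the other VEGF ligands and receptors, 0 of 5 were called by edgeR, 0 had an unadjusted p under 0.05, and DESeq2 called 0. Nrp1, a co-receptor, was the most abundant in CPM, at 180 ± 8.79 CPM in ΔDMR1-U2 muscle and 168 ± 5.53 CPM in wild-type (SD, n = 4 each), with a log2 fold change of 0.10 (adjusted p = 0.368, edgeR). Nrp2, its relative, had 0.00, Flt4 0.02, Pgf, placental growth factor, -0.08, and Figf, the symbol used in the table for VEGF-D, 0.32. None of these log2 fold changes passed the test.

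The angiopoietins and their receptor likewise showed no called difference. Angpt1, which activates Tek, had 22.2, 13.0, 18.1 and 16.5 CPM in ΔDMR1-U2 libraries 1A, 1B, 2 and 3, against 17.5, 18.7, 16.8 and 18.6 CPM in wild-type. The ΔDMR1-U2 libraries lay on both sides of the wild-type range, with a coefficient of variation of 21.8% against 5.07% in wild-type. Angpt2 had 12.1, 15.6, 9.37 and 14.2 CPM in ΔDMR1-U2 muscle and 11.2, 11.1, 13.2 and 12.5 CPM in wild-type, again wider in ΔDMR1-U2 than in wild-type. The log2 fold changes were -0.04 with a standard error of 0.14 for Angpt1 and 0.10 with a standard error of 0.14 for Angpt2. Exons of Angpt1 share 737 bases with Gm17473 on the opposite strand, and the sources used here do not give the strand setting of the counts.

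Tek, the angiopoietin receptor, had 89.9, 93.8, 73.2 and 94.7 CPM in ΔDMR1-U2 libraries 1A, 1B, 2 and 3, against 72.4, 77.2, 76.2 and 80.5 CPM in wild-type. Libraries 1A, 1B and 3 of ΔDMR1-U2 were above every wild-type library, and library 2 was inside the wild-type range. The log2 fold change was 0.20 (standard error 0.08), and Tek was not called. It was called in the fit without ΔDMR1-U2 library 2, at 0.28.

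The ratio of Angpt2 to Angpt1, per kilobase of exon, was 0.767, 1.69, 0.731 and 1.22 in ΔDMR1-U2 and 0.904, 0.837, 1.11 and 0.949 in wild-type. Library 1B, with the lowest Angpt1 and the highest Angpt2, set the upper end. Of the other angiopoietin and Tie genes, 0 of 3 were called by edgeR, 0 had an unadjusted p under 0.05, and DESeq2 called 0. Tie1, the partner receptor of Tek, had a log2 fold change of 0.09, Ptprb, a phosphatase that acts on Tek, 0.12, and Angpt4, a further angiopoietin, 0.23, with adjusted p of 0.503, 0.526 and 0.671 (edgeR).

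**Figure D2:**
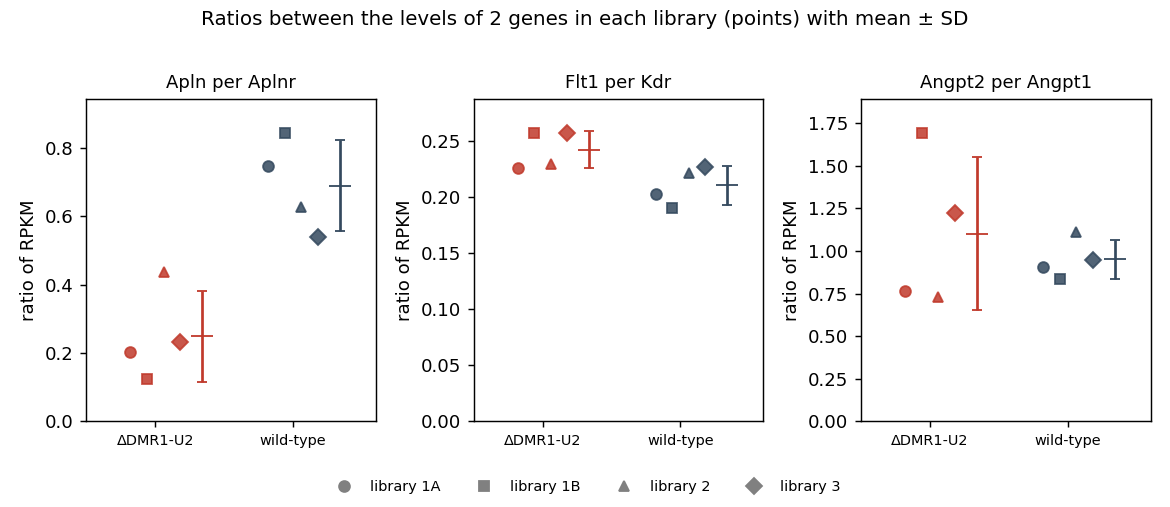
Ratio of the levels of 2 genes in each library, from CPM per kilobase of exon (RPKM), in ΔDMR1-U2 and wild-type muscle, with mean ± SD. Apln per Aplnr lies between 0.123 and 0.436 in ΔDMR1-U2 libraries and between 0.539 and 0.842 in wild-type libraries, while the other ratios overlap between the genotypes.

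Compared per length, as CPM per kilobase of exon (RPKM), the order of the 10 genes differed between the genotypes in the places of Apln and Tek and in neighbouring genes that changed places. In ΔDMR1-U2 muscle Tek was highest at 18.7 ± 2.13 RPKM, followed by Aplnr at 14.9 ± 2.44, Vegfa at 14.7 ± 1.31, Kdr at 11.3 ± 0.537 and Vegfb at 6.14 ± 0.936 RPKM. Apln came next at 3.81 ± 2.16 RPKM, then Angpt2 at 3.47 ± 0.739, Angpt1 at 3.35 ± 0.729, and Vegfc and Flt1 at 2.75 ± 0.378 and 2.75 ± 0.300 RPKM (SD, n = 4). Neighbours in this order overlapped in range, except Vegfa with Kdr and Kdr with Vegfb.

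In wild-type muscle Aplnr was at 18.2 ± 1.6 RPKM, Vegfa at 16.5 ± 1.01, Tek at 16.2 ± 0.704, Apln at 12.4 ± 1.33 and Kdr at 11.3 ± 0.416 RPKM. Vegfb followed at 6.22 ± 1.19 RPKM, Angpt1 at 3.44 ± 0.174, Angpt2 at 3.25 ± 0.271, Flt1 at 2.38 ± 0.249 and Vegfc at 2.20 ± 0.254 RPKM (SD, n = 4). Here Tek and Apln, Kdr and Vegfb, Vegfb and Angpt1, and Angpt2 and Flt1 were apart in range, and the other neighbours overlapped. Apln thus stood beside Kdr in wild-type muscle and beside the angiopoietins in ΔDMR1-U2 muscle. Exon lengths were taken from GENCODE vM21, which may not be the annotation the authors counted on.

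**Figure D3:**
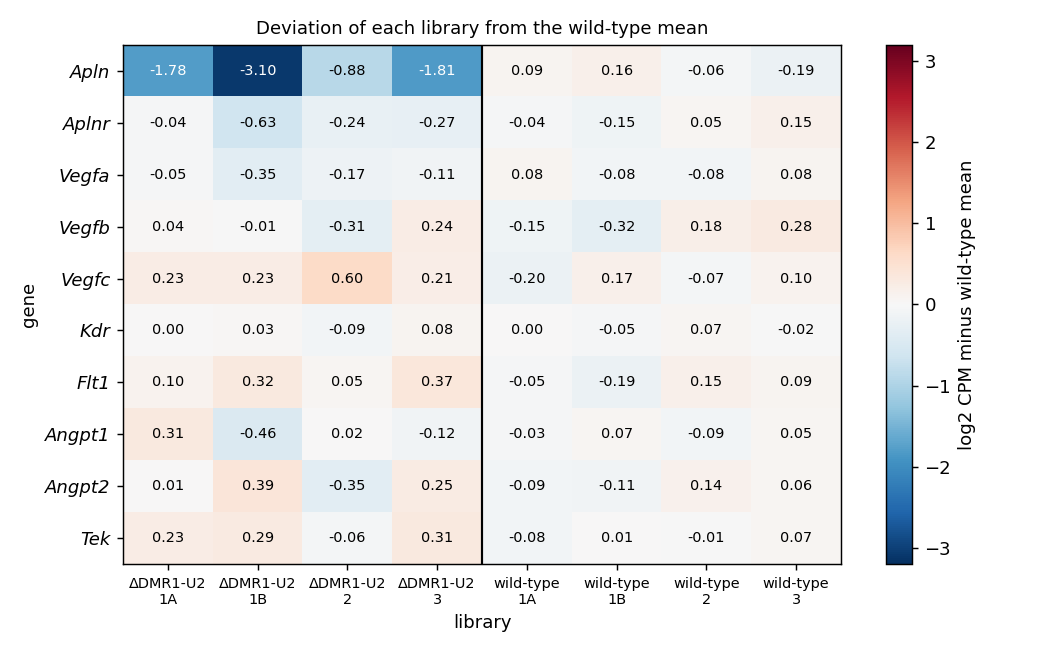
Log2 CPM of each gene in each library minus the mean of the wild-type libraries (colour and printed value), with ΔDMR1-U2 libraries on the left and wild-type on the right. Apln runs from -3.10 to -0.88 in the 4 ΔDMR1-U2 libraries, and no value of another gene is beyond -0.63 or 0.60.

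Across the 10 genes the log2 fold changes went both ways, 5 negative and 5 positive, with a median of -0.01 beside a median of 0.00 over all tested genes. The signs of Kdr, Vegfb, Angpt1 and Angpt2, all within their standard error of 0, were not stable, and each changed under 1 to 3 of the alternative settings. The members lower in ΔDMR1-U2 by more than their standard error were Apln, Aplnr and Vegfa, and those higher were Vegfc, Flt1 and Tek. An unadjusted p under 0.05 was reached by 4 of the 10, where 21.3% of all tested genes reached it. That count too is description, since the members were proposed with this contrast in view.

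**Figure D4:**
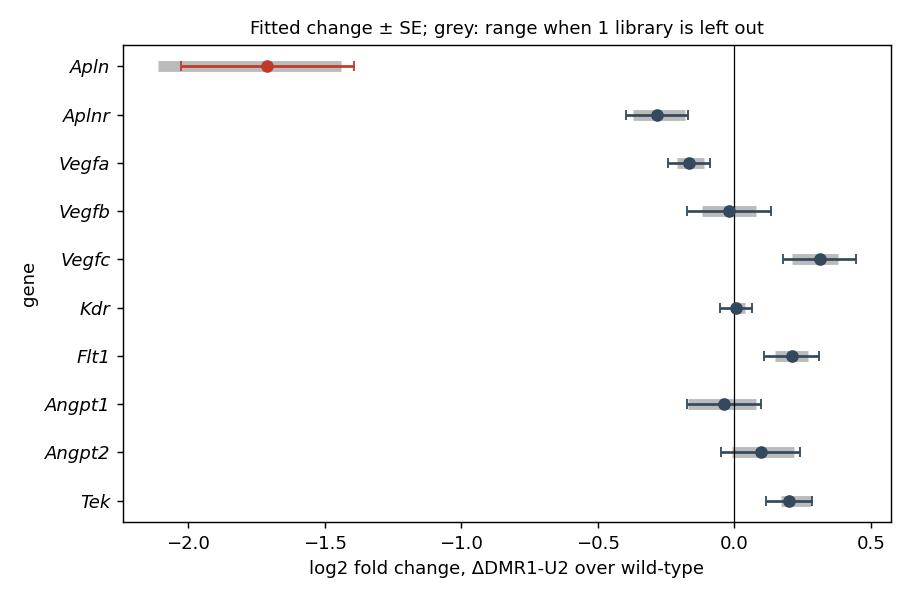
Log2 fold change of ΔDMR1-U2 over wild-type for each gene (horizontal axis) with its standard error, over a grey bar for the range over 8 fits with 1 library left out of each. Apln is at -1.71, with a range of -2.11 to -1.44, and the other 9 genes lie between -0.28 and 0.31.

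The remaining genes of these pathways were followed in 7 lists, of which 3 are given above. Of 86 tested genes in all 7 lists, edgeR called 0 over all genes tested. An unadjusted p under 0.05 was reached by 22, or 25.6%, 11 higher and 11 lower, and the groups did not overlap in 9, or 10.5%, beside 21.3% and 12.8% of all tested genes. DESeq2 called 8, among them Prkcb, Nrarp, Ldha, Bnip3, Ndrg1, Kdm3a and Klf4. These genes are named for their DESeq2 calls, seen after the test.

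Of 25 tested genes that carry the signal of VEGF receptors inside the cell, edgeR called 0. Their median log2 fold change was 0.00, and 5 (20%) had an unadjusted p under 0.05, beside 21.3% of all tested genes. Cdc42, a small GTPase of cell shape, was the most abundant, at 261 ± 13.6 CPM in ΔDMR1-U2 muscle and 274 ± 15.4 CPM in wild-type (SD, n = 4 each), and had -0.07 (adjusted p = 0.563, edgeR). Akt1, the survival kinase, had -0.21 (adjusted p = 0.20, edgeR). Prkcb, a protein kinase C, had 0.36 (adjusted p = 0.0891, edgeR). Hras was not analysed here.

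Apln is known as a tip cell gene in mouse vessels, and the list of tip cell and Notch genes held 14 tested genes, of which edgeR called 0 and DESeq2 called 1. Their median log2 fold change was -0.11, and 5 had an unadjusted p under 0.05, 4 of them lower. That is 35.7% of the list, beside 21.3% of all tested genes. Nrarp, a feedback regulator of Notch signalling, had 8.48, 9.07, 12.9 and 12 CPM in ΔDMR1-U2 libraries 1A, 1B, 2 and 3, against 18.4, 14.5, 15.3 and 15.8 CPM in wild-type, without overlap, at -0.59 (adjusted p = 0.0665, edgeR). The other 3, chosen after their values were seen, were Esm1, a secreted tip cell proteoglycan, at -1.05, Pdgfb, which recruits mural cells, at -0.38, and Dll4, the tip cell Notch ligand, at -0.35. Esm1 was rare, at 1.02, 0.427, 1.97 and 1.23 CPM in ΔDMR1-U2 muscle and 1.75, 3.02, 1.65 and 3.06 CPM in wild-type, and its groups overlapped. The adjusted p values of these 3 were 0.147, 0.186 and 0.158 (edgeR). The 1 higher gene with an unadjusted p under 0.05 was Jag1, a Notch ligand, at 73.1 ± 7.44 CPM in ΔDMR1-U2 muscle and 60.6 ± 5.43 CPM in wild-type (SD, n = 4 each) and a log2 fold change of 0.27 (adjusted p = 0.126, edgeR). Hey2, a Notch target, had 0.45 (adjusted p = 0.323, edgeR). The most abundant genes of the list, Notch1 and Ephb4, had -0.07 and 0.05.

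Apln and Vegfa are both known targets of hypoxia-inducible factors, and the hypoxia list held 23 tested genes, of which edgeR called 0 and DESeq2 called 4. Their median log2 fold change was -0.02, and 9 had an unadjusted p under 0.05, 6 higher and 3 lower. That is 39.1% of the list, beside 21.3% of all tested genes. The groups did not overlap in 5, or 21.7%, beside 12.8% of all tested genes. Ldha, lactate dehydrogenase A, had 485 ± 72.4 CPM in ΔDMR1-U2 muscle and 605 ± 44.4 CPM in wild-type (SD, n = 4 each), at -0.32 (adjusted p = 0.125, edgeR), and Pgk1, a glycolytic kinase, had -0.17. Bnip3, a mitophagy receptor, had 38.0, 87.3, 35.6 and 44.9 CPM in ΔDMR1-U2 libraries 1A, 1B, 2 and 3, against 25.7, 26.4, 25.2 and 25.7 CPM in wild-type, at 1.00 (adjusted p = 0.0680, edgeR). Bnip3 was thus highest in ΔDMR1-U2 library 1B, where Apln was lowest. This was not particular to Bnip3. Egln3, Ddit4 and Slc2a1 of the list were also highest in that library, at 68.9, 31.7 and 13.2 CPM, while Ldha was lowest there, at 430 CPM. That library also lay apart on the first principal component, and a link between Bnip3 and Apln was not tested. Ndrg1 and Kdm3a, a histone demethylase, had 0.46 and 0.25. In the fits without library 1B and without library 2, edgeR called Bnip3.

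The 14 endothelial transcription factors had a median log2 fold change of 0.11, with 0 called by edgeR and 1 by DESeq2. An unadjusted p under 0.05 was reached by 3, or 21.4%, beside 21.3% of all tested genes, 1 higher and 2 lower. The 2 lower genes were Sox7 at -0.27 and Erg at -0.25, with adjusted p of 0.18 and 0.226 (edgeR), and the higher gene was Klf4. Klf4, a flow-responsive factor, had 39.6 ± 3.73 CPM in ΔDMR1-U2 muscle and 31.3 ± 4 CPM in wild-type (SD, n = 4 each), at 0.34 (adjusted p = 0.110, edgeR). The most abundant, Mef2c, which muscle fibres also express, had -0.26, and Ets1 had -0.01.

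Markers of other vascular cells were followed as well. The 8 mural cell markers summed to 880.9 to 1082 CPM in ΔDMR1-U2 muscle and 940.1 to 1053 CPM in wild-type, with overlap between the groups. The single mural markers went both ways. EdgeR called 0, DESeq2 called 1 and 2 had an unadjusted p under 0.05 (edgeR). These were Acta2 at -0.37 and Abcc9 at -0.20, with adjusted p of 0.0891 and 0.21 (edgeR), while Myh11 and Pdgfrb had 0.33 and 0.21. The 6 lymphatic markers summed to 171.1 to 197.4 CPM in ΔDMR1-U2 muscle and 160.8 to 168.6 CPM in wild-type, and 1 of 5 tested, Reln, rose, at 0.40 (adjusted p = 0.0446, edgeR), while Ccl21a was at 0 in every library. The lymphatic sums did not overlap between the groups, but without Reln they did, at 104.8 to 125.5 CPM in ΔDMR1-U2 muscle and 102.9 to 113.6 CPM in wild-type. Of the other markers, none of them called, Prox1, Lyve1 and Mmrn1 had log2 fold changes of 0.11, 0.10 and 0.59, and Pdpn had -0.10. Mmrn1 was at 0.0493 CPM in ΔDMR1-U2 library 3 and at 7.82 to 11.6 CPM in the other libraries of that genotype. The part of these cell types in the differences of the 10 genes was not tested.

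**Figure D5:**
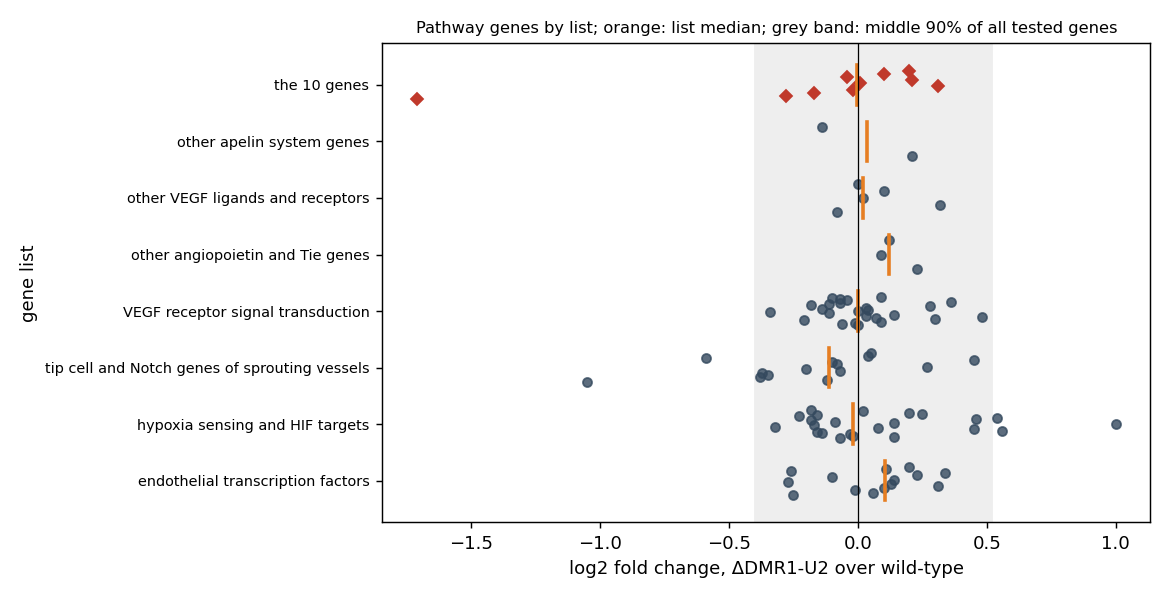
Log2 fold change of ΔDMR1-U2 over wild-type for every tested gene of the 7 pathway lists (circles, a row per list) and for the 10 genes (diamonds, top row). Orange lines are list medians, between -0.11 and 0.12 for the 7 lists, and the grey band, -0.40 to 0.52, holds the middle 90% of all tested genes.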

How the data were processed

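Total RNA of 8 skeletal muscle samples was ribosome-depleted and sequenced as read pairs, per the labels' protocols. Reads were processed on mm10 with TopHat2 2.0.9, Bowtie2 2.1.0 and HTSeq 0.5.4p3, besides DESeq2 1.4.5 and FastQC 0.10.1, per the submitters' processing notes. The sources used here give no annotation or strand setting. Depletion keeps unspliced RNA, which can add to counts.

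The table holds a raw count per gene and sample, deposited by the authors without normalization. It also holds the authors' mean normalised counts (a signal scaled by size factors), their linear ratio and its log2, both wild-type over ΔDMR1-U2, and their p-value and adjusted p-value. Log2 fold changes computed here run the other way, ΔDMR1-U2 over wild-type. Columns of per-sample values left without a sample numbered 0.

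Raw counts were fitted with edgeR 4.0.16 in R 4.3.3 (filterByExpr at a minimum count of 10, TMM scaling, quasi-likelihood test), and a gene was called at an adjusted p (Benjamini-Hochberg) under 0.05 over 15241 genes. In a simulation of this comparison with 15162 genes, the recovered share was 52.0% at a true change of 1.5-fold, 87.8% at 2-fold and 100.0% at 3-fold and at 4-fold, and 10 of 179 calls were unchanged genes. DESeq2 1.42.0 was an alternative. RPKM divides CPM by the exon length in GENCODE vM21 for mm10. Libraries of 1 genotype differed by far more than sampling noise, and each was counted as 1 replicate.

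The members, gene lists, tests and alternatives were chosen with earlier results of these data known. The naming rule took all 10 members, every gene of lists of 5 or fewer, and otherwise up to 4 called genes of a list or its 2 most abundant in CPM. Some genes of these lists are not reported here. Promoters came from RefSeq.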

Additional observations from a re-analysis of the deposited data

Results flagged for a closer look

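A check for a library far from the other 3 of its genotype was made for 36 groups, the 10 genes and 8 marker lists in each genotype, and picked out 7, where chance gives about 1 in 20. Among the 10 genes it picked out Vegfc in ΔDMR1-U2, where library 2 was at 8.12 CPM and the others at 6.22 to 6.30 CPM. The other 6 were sums over marker lists. In ΔDMR1-U2, the adipocyte markers summed to 166 CPM in library 1B and the fibroblast markers to 13800 CPM in library 3. In wild-type, the mural markers summed to 940 CPM in library 1B, the lymphatic markers to 169 CPM in library 2, and the macrophage markers to 332 CPM in library 3. The red blood cell markers were at 71.4 CPM in wild-type library 3, a value that comes from Alas2 alone. Of the 5 red blood cell markers, Hba-a2, Hbb-b1 and Hbb-b2 were listed at 0 in every library, and Hba-a1 was at 0 in all but ΔDMR1-U2 library 1B, at 0.0534 CPM. Alas2 was the 1 marker tested. The part of these cell types in the values of the 10 genes was not tested.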

How the results depend on the processing

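The log2 fold changes of the 10 genes moved by less than 1 SD between libraries in all 140 values recomputed under other scaling, testing, filtering, blocking, endothelial marker scaling or fewer libraries. The sign differed from the one reported in 1 of these values for Angpt1, 2 for Angpt2, 3 for Kdr and 3 for Vegfb, and in none for the other 6 genes. The counts of calls moved more. DESeq2 called 962 genes and 8 other pathway genes, against 172 and 0 in edgeR. With the replicate number as a block, 13 genes and 0 members were called, and Apln was at -1.83. Same-numbered libraries did not deviate together (correlations of -0.27 to -0.02), where pairs of different number ran from -0.42 to 0.46. This gave no sign of pairing by number, but so few correlations cannot exclude it. Here 1A and 1B were counted as different numbers. With ΔDMR1-U2 libraries 1A and 1B both left out, 16 genes and 0 members were called. Over the 8 fits without 1 library, calls ran from 7 to 631 over all genes, from 0 to 7 for other pathway genes and from 0 to 2 for members. The highest of each came without ΔDMR1-U2 library 2, and 7 genes were called without wild-type library 1A, 7 without ΔDMR1-U2 library 3, 20 without wild-type 1B, 10 without wild-type 2 and 22 without wild-type 3. The cause was not tested. With 4 libraries a genotype, changes of 2-fold or less can be missed, with 52.0% recovered at 1.5-fold and 87.8% at 2-fold in the simulation. The simulation drew every library from the same fitted spread per gene, without a library that lies apart. Recovery in these data may therefore be lower. With all 4 libraries a genotype, Esm1 at -1.05 and Cfd at 1.24 on the log2 scale, both beyond 2-fold, were not called. Larger changes can also be missed with fewer libraries. Apln, 3.27-fold lower, was called in 2 of the 8 fits without 1 library.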
